A study of Mus musculus with 2 samples.

Results

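The histone genes of the fetal ovary were examined as a group of 86 of the 27998 genes in both count matrices. Members were every gene whose symbol begins with Hist1h, Hist2h, Hist3h or Hist4h, or is built as an H1, H2a, H2b or H3 variant name such as H2afz or H3f3b without a hyphen. These 86 entries hold 85 symbols, because Hist2h2bb stands for 2 gene identifiers, and they were sorted by role into 66 replication-dependent genes, 10 replacement variants, 9 germ cell variants and 1 antisense transcript, H3f3aos. Transcripts of single cells were counted from fetal mouse ovaries at E15.5 (E, embryonic day), in 1 KO library from 2 pooled embryos and 1 WT library from 4 pooled embryos. The KO embryos lacked the glucocorticoid receptor (GR) in every tissue, through deletion of exon 3 of Nr3c1 with a β-actin Cre, and WT embryos served as controls. Both genotypes came from the strain labelled Tg(Pou5f1-EGFP)2Mnn Nr3c1tm1.1Jda, whose transgene marks germ cells with GFP (OCT4-GFP). GFP-positive germ cells were sorted and recombined with somatic cells of the same ovaries at 60 to 40, so the ratio of germ to somatic cells was set at the bench. With 1 library a genotype there was no replicate and no test could be run, and genotype cannot be told apart from embryo pool, sort or capture. The comparisons asked how histone genes of each role are used along germ cell development and in the somatic cells of the ovary, and whether those levels differed between KO and WT.

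Replication-dependent histone genes supply the bulk of H1, H2A, H2B, H3 and H4 during S phase, sit in clusters, and give messages that end in a stem-loop in place of a poly(A) tail. Replacement variants such as H3.3 and H2A.Z are made throughout the cell cycle from ordinary polyadenylated messages and enter chromatin outside replication. Germ cell variants, among them TH2A, TH2B and H1t, are known chiefly from the testis, where they accumulate during meiosis before the histones are exchanged for protamines. The libraries were primed from poly(A) and read near the 3′ end, so a message without a poly(A) tail is read poorly, and the counts of replication-dependent genes are counts of the polyadenylated or internally primed fraction.

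The roles, which were assigned by gene symbol, were compared at the end of the message. A stem-loop of 16 bases, with a stem of 6 base pairs, was searched in the longest coding transcript of each member in the GENCODE M21 annotation of GRCm38, and was found in 40 of 63 replication-dependent genes with such a transcript. It was also found in 1 replacement variant, H2afx, and in 2 germ cell variants, Hist1h1t and H2bfm. The annotated transcripts of Hist1h2aa and Hist1h2ba are 390 and 384 bases long, and a stem-loop past an annotated end could not be found. A gene without a stem-loop in the annotation may therefore still carry it. The commonest of 7 forms was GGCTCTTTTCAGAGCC, in 24 members, followed by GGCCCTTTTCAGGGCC in 7, all H4 genes, and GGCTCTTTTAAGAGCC in 6. The sites of the members on which the results below turn are shown in the sense of the message, each in the only exon of its gene and in the 3′ UTR, with the stem-loop in capitals.
Hist1h1e (chr13:23621775-23621804, minus strand): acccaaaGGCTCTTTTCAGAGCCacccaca
Hist1h4d (chr13:23581943-23581972, plus strand): aaccaaaGGCCCTTTTCAGGGCCactacct
Hist1h2ap (chr13:21833026-21833051, minus strand): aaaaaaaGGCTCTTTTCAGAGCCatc
Hist1h2ae (chr13:23570661-23570690, minus strand): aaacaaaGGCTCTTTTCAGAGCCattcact
Hist1h3f (chr13:23544925-23544954, plus strand): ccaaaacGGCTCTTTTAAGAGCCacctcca
Hist1h4i (chr13:22040959-22040988, minus strand): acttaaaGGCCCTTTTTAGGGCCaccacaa
Hist1h1t (chr13:23696518-23696547, plus strand): acccaaaGGCTCTTTTAAGAGCCacttaca
H2afx (chr9:44335233-44335262, plus strand): ccacaaaGGCCCTTTTAAGGGCCaccacct

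The annotated messages of these genes run on for different lengths after the stem-loop. The length was 1153 bases in Hist1h1e, 822 in H2afx, 770 in Hist1h4d, 365 in Hist1h3f and 330 in Hist1h4i. It was 185 in Hist1h1t, 151 in Hist1h2ae and 3 in Hist1h2ap. Hist1h2ae and Hist1h2ap carry the same 16 bases, as does Hist1h1e, so the stem-loop itself does not distinguish them.

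The most abundant germ cell variants, Hist1h2aa (TH2A) and Hist1h2ba (TH2B), are neighbours on chromosome 13 of GRCm38. Hist1h2aa lies at chr13:23934462-23934851 on the plus strand and Hist1h2ba at chr13:23933773-23934156 on the minus strand. The genes thus point away from each other with 305 bases between their annotated starts, which need not be the starts of transcription. Their promoters, taken from RefSeq (GRCm38.p6) as 250 bases before to 50 bases after each RefSeq start, overlap by 220 bases and are shown with that of Hist1h1t (H1t). Capitals mark the TATA box TATAAA, the CCAAT box CCAAT and the octamer ATTTGCAT of H2B promoters, each searched on both strands.
Hist1h2aa (chr13:23934187-23934486, plus strand): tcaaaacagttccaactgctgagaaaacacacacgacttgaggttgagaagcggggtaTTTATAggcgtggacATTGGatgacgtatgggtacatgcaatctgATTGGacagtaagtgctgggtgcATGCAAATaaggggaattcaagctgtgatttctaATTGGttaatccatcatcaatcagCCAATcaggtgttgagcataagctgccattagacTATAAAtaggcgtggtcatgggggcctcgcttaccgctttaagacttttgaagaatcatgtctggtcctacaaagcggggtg
Hist1h2ba (chr13:23934107-23934406, minus strand): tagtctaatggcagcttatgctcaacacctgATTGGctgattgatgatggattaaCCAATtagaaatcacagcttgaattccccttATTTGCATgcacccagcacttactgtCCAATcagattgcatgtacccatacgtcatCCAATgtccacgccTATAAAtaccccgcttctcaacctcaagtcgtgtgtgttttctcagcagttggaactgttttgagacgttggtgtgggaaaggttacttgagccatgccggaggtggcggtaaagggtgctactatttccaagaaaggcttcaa
Hist1h1t (chr13:23695561-23695860, plus strand): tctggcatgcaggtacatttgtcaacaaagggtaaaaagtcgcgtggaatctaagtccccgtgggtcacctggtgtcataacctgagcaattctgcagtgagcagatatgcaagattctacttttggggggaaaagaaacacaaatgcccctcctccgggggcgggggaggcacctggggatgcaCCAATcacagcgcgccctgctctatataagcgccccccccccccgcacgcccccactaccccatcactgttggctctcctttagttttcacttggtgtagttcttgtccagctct

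Counted from the RefSeq start, the Hist1h2aa promoter holds a TATA box at -32 to -27 and the Hist1h2ba promoter one at -94 to -89. The bases after the Hist1h2ba start open with atg, so this start may be that of the coding sequence. Its -94 is therefore not a known distance from the start of transcription. The same octamer is read in both promoters, on opposite strands. The Hist1h1t promoter holds a single CCAAT box at -65 to -61 and no exact match of TATAAA or ATTTGCAT. Other spellings of a TATA box were not searched. Promoters were matched for 76 of the 86 members by Entrez gene identifier, or by symbol where the identifier gave no match. TATAAA was present in 33 of 58 replication-dependent promoters (56.9%), 1 of 9 replacement promoters (11.1%) and 2 of 9 germ cell variant promoters (22.2%), against 13.6% of all 32851 promoters in the table. CCAAT was present in 84.5% of replication-dependent, 66.7% of replacement and 77.8% of germ cell variant promoters, against 37.4% of all promoters. ATTTGCAT was found in 11 replication-dependent promoters (19.0%), against 1.74% of all. A match is a description of these letters and not of a factor bound there.

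The KO library held 17829 barcodes and 186117981 UMIs and the WT library 11430 barcodes and 168483330 UMIs; a UMI marks 1 captured molecule. After the limits of the study 15502 KO and 9045 WT cells remained, with medians of 10194.5 and 15685 UMIs, and 27 barcodes of kept cells were shared between the libraries. Nr3c1, the deleted gene, was counted at 11.6 counts per 1000000 UMIs (CPM) in KO germ-like cells and 72.0 CPM in WT, and these counts name the gene and not its exons. Cells were clustered without the histone genes and named from marker genes as germ-like (10185 KO, 6766 WT), epithelia-like (1075, 400), granulosa-like (2057, 961) and theca-like (1944, 842), with 50 to 137 KO and 15 to 31 WT cells in each of the endothelia-like, immune-like and erythroid-like classes. Germ-like cells were divided again into premeiotic/entry-like cells (1839 KO, 710 WT), recombination-like cells (3386, 2193) and cells led by Myom3, Speer4a and Morn5 (4850, 3799), called Myom3-high because only 2 advanced prophase markers reached the limit for a name. A further 110 KO and 64 WT germ-like cells led by Xist carried granulosa markers and were called doublets by Scrublet in 46.6% of cases; they were left out of the stages. UMIs were summed over the cells of a class and expressed as CPM, with exact 95% Poisson intervals in brackets that cover counting error only.

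The 3 roles followed different courses. Replication-dependent transcripts were highest in premeiotic/entry-like cells, at a summed 2429 CPM (2411 to 2447) in KO and 2859 CPM (2832 to 2886) in WT, and stood at 1539 and 1576 CPM in recombination-like and 1534 and 1439.9 CPM in Myom3-high cells. Germ cell variants ran the other way, from 158 CPM (154 to 163) in KO and 115 CPM (109.9 to 121) in WT premeiotic/entry-like cells to 497 CPM (491 to 504) and 435 CPM (429.8 to 439.8) in Myom3-high cells. Replacement variants were lowest in recombination-like cells, at 2803 CPM in KO and 2721 CPM in WT, with 3987 and 4034 CPM in Myom3-high cells. Both libraries showed the same order of the 3 stages for germ cell variants and for replacement variants, which stood at 3351 and 3335 CPM in premeiotic/entry-like cells. For replication-dependent transcripts the later 2 stages did not differ beyond counting error in KO, at 1539 CPM (1527 to 1551) and 1534 CPM (1523 to 1545), and with cells thinned to 3000 UMIs Myom3-high cells stood above recombination-like cells in KO (1599 against 1568 CPM) and below them in WT (1477 against 1611 CPM).

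Among somatic cells, granulosa-like cells held the least replication-dependent transcript, 554 CPM in KO and 495 CPM in WT, against 1586 and 1679 CPM in theca-like and 1374 and 1230.2 CPM in epithelia-like cells. Replacement variants were higher in all 3 somatic-like classes than in germ-like cells (3424 CPM in KO and 3552 CPM in WT), from 4614 CPM in KO granulosa-like to 6555 CPM in WT epithelia-like cells. The small classes were uneven: summed replication-dependent transcripts stood at 1881 CPM in KO and 701 CPM in WT immune-like cells and at 1141 and 2949.8 CPM in erythroid-like cells, on at most 54 cells of a library. A UMI is counted once per captured transcript whatever its length, so sums over genes carry no length scale.

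**Figure D1:**
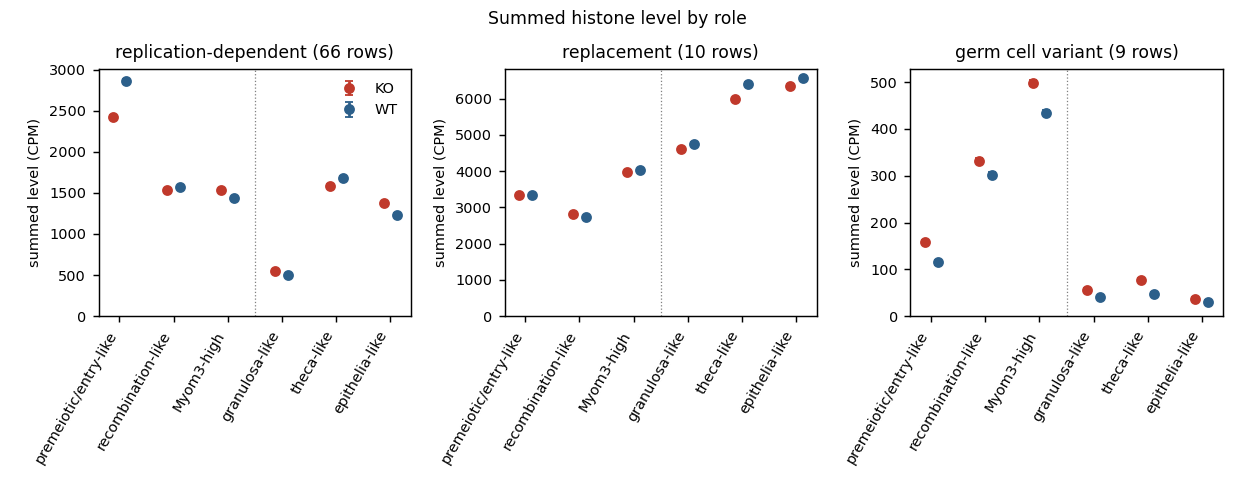
Summed level (CPM, linear axis from 0) of replication-dependent, replacement and germ cell variant histone genes in 3 germ stages and 3 somatic-like classes, for the KO and the WT library; bars are exact 95% Poisson intervals and are mostly smaller than the points. Germ cell variants climb over the germ stages to 497 CPM in KO and 435 CPM in WT, while replication-dependent transcripts are highest in premeiotic/entry-like cells.

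Of the 9 germ cell variants, 4 were read at more than 100 UMIs in germ-like cells, and all 4 were higher in germ-like than granulosa-like cells in both libraries. Hist1h2aa, which encodes the H2A partner of the TH2A/TH2B dimer, was the highest of them. It stood at 99.3 CPM in KO and 72.0 CPM in WT in premeiotic/entry-like cells, 220.04 CPM in KO and 192 CPM in WT in recombination-like cells and 351 CPM in KO and 293 CPM in WT in Myom3-high cells. The log2 ratio of Myom3-high over premeiotic/entry-like cells was 1.82 (1.76 to 1.88) in KO and 2.02 (1.94 to 2.11) in WT. Hist1h2ba, its H2B partner, rose from 31.2 CPM in KO and 25.7 CPM in WT to 110.1 CPM in KO and 106 CPM in WT, which is a log2 ratio of 1.82 (1.72 to 1.92) and 2.05 (1.90 to 2.20). Their proportion varied less than their levels: 3.11 (3.04 to 3.18) UMIs of Hist1h2aa were counted for each UMI of Hist1h2ba in KO germ-like cells and 2.73 (2.67 to 2.79) in WT, and 3.18 (2.95 to 3.44) and 2.81 (2.50 to 3.16) in premeiotic/entry-like, 2.95 (2.84 to 3.08) and 2.66 (2.54 to 2.78) in recombination-like and 3.18 (3.09 to 3.28) and 2.76 (2.69 to 2.84) in Myom3-high cells. In KO the interval of recombination-like cells lay below that of Myom3-high cells. In each of the 3 stages that proportion was higher in KO than in WT.

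Hist1h1t, the H1 variant of meiotic cells, was lower and flatter. Its level was 16.8 CPM in KO and 9.80 CPM in WT in premeiotic/entry-like and 21.3 CPM in KO and 21.8 CPM in WT in Myom3-high cells, with a log2 ratio of 0.35 (0.19 to 0.51) in KO and 1.15 (0.91 to 1.40) in WT. H2bfm, an X-linked H2B variant, peaked in recombination-like cells at 17.0 CPM in KO and 17.4 CPM in WT, against 11.0 CPM in KO and 7.63 CPM in WT in premeiotic/entry-like and 15.0 CPM in KO and 13.9 CPM in WT in Myom3-high cells. The other 5 were at the edge of detection. H1foo, the linker histone of the growing oocyte, stood at 0.140 CPM in KO and 0.10 CPM in WT in germ-like cells, and H1fnt and H2afb1 were each below 0.1 CPM there. H2afb2 and H2afb3, like the H2B gene Hist1h2bq, had 0 UMIs in both libraries. A count of 0 allows 3 counts, which correspond to 0.0247 CPM in KO and 0.0250 CPM in WT germ-like cells. Hist1h2bq is identical to Hist1h2br over its last 500 bases, and H2afb3 is 98.3% identical to H2afb1 over 348 bases. The treatment of reads that match several genes is not given, so for these 2 genes that value is no limit on expression. A finer division of the germ-like cells held 28 KO and 92 WT cells led by Sohlh1 that met the advanced prophase markers, and there Hist1h2aa stood at 209.9 and 182 CPM, below the Myom3-high cells.

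Germ cell variants were also counted in somatic-like cells, where germ cell RNA was present as a whole. The 12 germ markers, which somatic cells should lack, were read in granulosa-like cells at a median of 17.4% of their germ-like level in KO (range 9.51% to 19.2%) and 15.1% in WT (6.60% to 17.4%). Hist1h2aa stood at 15.2% and 10.5% of its germ-like level there, and Hist1h2ba at 15.1% and 12.6%, all inside the range of the markers. Hist1h1t in KO granulosa-like cells, at 20.5%, lay just above that range, on 81 UMIs. In theca-like cells the markers' median was 23.0% in KO and 15.4% in WT, and Hist1h2aa stood at 20.9% and 12.8%. Hist1h1t lay above the highest marker there as well, at 26.3% against 25.1% in KO and 19.1% against 17.7% in WT. H2bfm did so in epithelia-like cells, at 16.3% against 14.8% and 11.5% against 11.1%. These values rest on 120 UMIs of Hist1h1t and 44 UMIs of H2bfm over both libraries. No interval was computed for these percentages, so such small gaps are not shown to exceed counting error. The counts of Hist1h2aa and Hist1h2ba in these 3 classes lay within the range of the markers, and those of Hist1h1t and H2bfm exceeded it in the classes named. Whether any of these counts came from expression in somatic cells was not tested. The summed log2 ratio of germ cell variants in WT germ-like over granulosa-like cells was 3.15, and 4.18 when each cell was thinned to 3000 UMIs, which gives every cell the same weight.

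**Figure D2:**
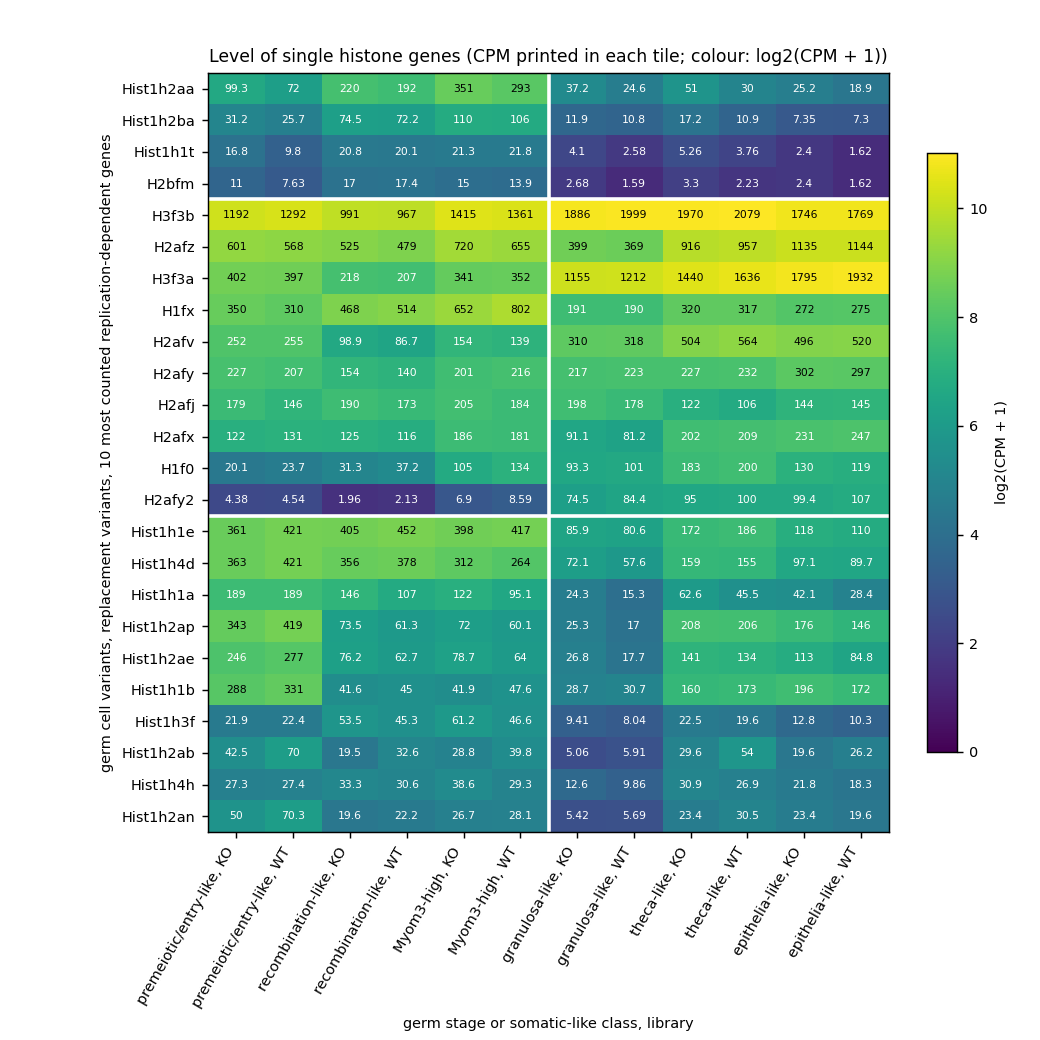
Level of 24 histone genes (rows) in 3 germ stages and 3 somatic-like classes of the KO and the WT library (columns); the number in a tile is the CPM and the colour is log2(CPM + 1), and white lines part the roles and the germ stages from the somatic-like classes. Hist1h2aa reads 351 CPM in KO and 293 CPM in WT Myom3-high cells against 25.2 and 18.9 CPM in epithelia-like cells, and H2afy2 shows the reverse contrast between germ and somatic-like columns.

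The 10 replacement variants were all read in every class, and they split by cell type. H3f3a and H3f3b encode the same protein, H3.3, from separate genes. H3f3b was the more abundant in germ-like cells, at 1215 CPM in KO and 1236 CPM in WT, whereas H3f3a stood at 315 CPM in KO and 316 CPM in WT. In granulosa-like cells H3f3a reached 1155 CPM in KO and 1212 CPM in WT, a log2 ratio of germ-like over granulosa-like of -1.87 (-1.90 to -1.85) in KO and -1.94 (-1.97 to -1.91) in WT, and for H3f3b the ratio was -0.63 (-0.65 to -0.62) and -0.69 (-0.71 to -0.67). In epithelia-like cells both genes stood side by side, with H3f3a at 1795 CPM in KO and 1932 CPM in WT and H3f3b at 1746 CPM in KO and 1769 CPM in WT.

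H2afy2, which encodes macroH2A2, a variant of repressed chromatin, was the most somatic of the replacement genes. It was read at 4.79 CPM in KO and 6.37 CPM in WT in germ-like cells and 74.5 CPM in KO and 84.4 CPM in WT in granulosa-like cells, which is a log2 ratio of -3.96 (-4.10 to -3.82) in KO and -3.73 (-3.86 to -3.59) in WT. How much of the low germ-like count was free somatic RNA was not tested. H2afy, which encodes macroH2A1, was far closer between classes, at 191 CPM in KO and 192 CPM in WT in germ-like and 217 CPM in KO and 223 CPM in WT in granulosa-like cells. H2afv, the other H2A.Z gene, was lower in germ-like (158 CPM in KO and 138 CPM in WT) than in theca-like cells (504 CPM in KO and 564 CPM in WT), while H2afz, the main H2A.Z gene, stood at 623 CPM in KO and 591 CPM in WT in germ-like and 399 CPM in KO and 369 CPM in WT in granulosa-like cells. H2afx, the H2A variant phosphorylated at DNA breaks, stood at 149 CPM in KO and 155 CPM in WT in germ-like cells, and H2afj, a replacement H2A of unclear role, at 194 CPM in KO and 176 CPM in WT.

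The replacement linker histones H1fx (H1.10) and H1f0 (H1.0) climbed along the germ stages. H1f0, a linker histone of slowly dividing and differentiated cells, stood at 20.1 CPM in KO and 23.7 CPM in WT in premeiotic/entry-like, 31.3 CPM in KO and 37.2 CPM in WT in recombination-like and 105 CPM in KO and 134 CPM in WT in Myom3-high cells, which is a log2 ratio of 2.39 (2.26 to 2.52) in KO and 2.50 (2.35 to 2.66) in WT. H1fx went from 350.4 CPM in KO and 309.7 CPM in WT to 652 CPM in KO and 802 CPM in WT, which is a log2 ratio of 0.90 (0.86 to 0.93) and 1.37 (1.33 to 1.42), and was higher in germ-like cells (515 CPM in KO and 651 CPM in WT) than in granulosa-like cells (191 CPM in KO and 190.3 CPM in WT). H2afv was the 1 replacement variant that was lower in Myom3-high cells past the 1.5-fold limit, at a log2 ratio of -0.71 (-0.76 to -0.66) in KO and -0.88 (-0.93 to -0.82) in WT. The antisense transcript H3f3aos, whose start overlaps that of H3f3a on the other strand, was read at 3.69 CPM in KO and 4.33 CPM in WT in germ-like cells; whether the counting used strand is not given in the sources used here.

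The annotation placed 53 of 55 Hist1 genes, germ cell variants included, on chromosome 13 (Hist1h2bm and Hist1h2bh were not matched): 52 of them between 21715763 and 23934851, and Hist1h2al, annotated as a processed pseudogene, apart from these at chr13:51202727-51203065. There were 11 Hist2 genes on chromosome 3, 2 Hist3 genes on chromosome 11 and 1 Hist4 gene on chromosome 6. Hist1 genes gave 99.3% of the replication-dependent UMIs of KO germ-like cells and 99.3% of WT. Hist3 genes gave 11.4% and 14.2% in granulosa-like cells, against 0.0779% and 0.0764% in germ-like cells. Over the kept cells of both libraries the 5 H1 genes held 190009 UMIs, the 18 H2A genes 110973, the 18 H2B genes 38437, the 12 H3 genes 42370 and the 13 H4 genes 121129. Since only part of each gene's messages is captured, these totals are no measure of histone supply.

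Along the germ stages the replication-dependent genes ranged from much lower to higher in Myom3-high than in premeiotic/entry-like cells. Hist1h2ap, an H2A gene, stood at 343 CPM in KO and 419 CPM in WT in premeiotic/entry-like and 72.0 CPM in KO and 60.1 CPM in WT in Myom3-high cells, which is a log2 ratio of -2.25 (-2.31 to -2.19) in KO and -2.80 (-2.86 to -2.75) in WT. Hist1h1b (H1.5) showed -2.78 (-2.85 to -2.71) and -2.80 (-2.86 to -2.74), Hist1h3c, an H3 gene, -2.41 (-2.53 to -2.29) and -2.94 (-3.06 to -2.82), and Hist1h2ae, an H2A gene, -1.64 (-1.70 to -1.59) and -2.11 (-2.17 to -2.05). Hist1h1e (H1.4), the most counted of all in germ-like cells, hardly moved: 361 CPM in KO and 421 CPM in WT in premeiotic/entry-like, 405 CPM in KO and 452 CPM in WT in recombination-like and 398 CPM in KO and 417 CPM in WT in Myom3-high cells. Hist1h4d, an H4 gene, stood at 363 CPM in KO and 421 CPM in WT and 312 CPM in KO and 264 CPM in WT at the ends of that series, and Hist1h1a (H1.1) at 189 CPM in KO and 189 CPM in WT and 122 CPM in KO and 95.1 CPM in WT. Hist1h3f, an H3 gene, went up, at a log2 ratio of 1.48 (1.36 to 1.61) in KO and 1.06 (0.90 to 1.23) in WT. Hist1h4h, an H4 gene, stayed between 27.3 and 38.6 CPM in KO and between 27.4 and 30.6 CPM in WT over the 3 stages.

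Counted over the members with at least 100 UMIs in the stages compared, 24 of 46 replication-dependent genes were lower and 6 higher by at least 1.5-fold in WT Myom3-high than in premeiotic/entry-like cells, and 21 and 7 of 48 in KO. All members together gave 14 higher and 25 lower of 61 in WT, where 30.9% of all genes were higher and 19.2% lower, and 14 higher and 22 lower of 63 in KO, where 29.8% were higher and 19.8% lower. The median log2 ratio of the replication-dependent genes was -0.66 in WT and -0.27 in KO, against 0.16 and 0.13 over all genes tested. For replacement variants it was 0.27 in WT and 0.25 in KO, with 3 of 10 higher and 1 lower in WT and 4 higher and 1 lower in KO. The 4 germ cell variants tested were all higher in WT, and 2 of them were higher by that limit in KO. Stages are clusters of cells from the same library, so these are descriptions and not tests.

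Germ-like cells exceeded granulosa-like cells by at least 1.5-fold for 46 of 67 members in WT and 44 of 67 in KO, against 37.8% and 36% of all genes. Granulosa-like cells were higher for 9 members in WT and 10 in KO, against 35% and 36.4% of all genes. By role, 38 of 52 replication-dependent genes were higher in germ-like cells in WT and 37 in KO, and 3 of 10 replacement variants in either library, while 4 replacement variants in WT and 5 in KO were lower. Hist1h1e stood at 391 CPM in KO and 427 CPM in WT in germ-like and 85.9 CPM in KO and 80.6 CPM in WT in granulosa-like cells, and Hist1h4d at 338 CPM in KO and 317 CPM in WT and 72.1 CPM in KO and 57.6 CPM in WT. The 5 replication-dependent genes that were lower in germ-like cells, the same in both libraries and named here after their values were seen, were Hist3h2a, Hist3h2ba, Hist2h2ac, Hist4h4 and Hist2h2bb (ENSMUSG00000105827), all outside the Hist1 locus. Hist3h2a, an H2A gene, stood at 0.758 CPM in KO and 0.850 CPM in WT in germ-like and 44.5 CPM in KO and 54.8 CPM in WT in granulosa-like cells. Hist3h2ba, the H2B gene beside it, stood at 0.601 CPM in KO and 0.417 CPM in WT and 18.6 CPM in KO and 15.7 CPM in WT.

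Single cells showed how far these counts went with a list of S phase genes. Each cell was thinned to 3000 UMIs, which left out 0 cells, and grouped by its UMIs over 24 S phase genes such as Mcm2 and Pcna. In theca-like cells the mean number of replication-dependent UMIs per cell went from 1.30 in KO and 1.26 in WT at 0 to 1 S phase UMIs to 10.5 and 10.2 at 7 or more. Epithelia-like cells went from 1.40 and 1.38 to 7.69 and 6.76. In recombination-like cells the mean was 4.55 in KO and 4.67 in WT at 0 to 1, on 22 and 21 cells. It was 4.72 and 4.90 at 7 or more, so it hardly varied with the S phase list. Of recombination-like cells 93.4% in KO and 91.5% in WT held 4 or more S phase UMIs, against 41.6% and 40.1% of theca-like cells. Whether the list marks S phase in recombination-like cells was not tested. Premeiotic/entry-like cells reached 8.01 and 9.14 at 7 or more.

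The same contrast held for single genes, taken as the log2 ratio of CPM in cells with 7 or more over cells with 0 to 3 S phase UMIs. For Hist1h2ap it was 3.36 (3.20 to 3.52) in KO and 3.71 (3.49 to 3.94) in WT theca-like cells, and -0.15 (-0.35 to 0.06) and -0.11 (-0.33 to 0.12) in recombination-like cells. For Hist1h1e it was 1.65 (1.52 to 1.79) and 2.18 (2.00 to 2.35) in theca-like cells and 0.00 (-0.09 to 0.09) and 0.06 (-0.03 to 0.14) in recombination-like cells. The distribution over cells differed accordingly: the 10% of theca-like cells with the most replication-dependent UMIs held 65.1% of them in KO and 67.2% in WT, against 22.7% and 22.5% in recombination-like cells. Replacement UMIs were spread more evenly in theca-like cells, with 20.2% and 20.5% in the top 10%. The S phase list and the histone counts come from the same cells and UMIs, so these ratios are descriptions.

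**Figure D3:**
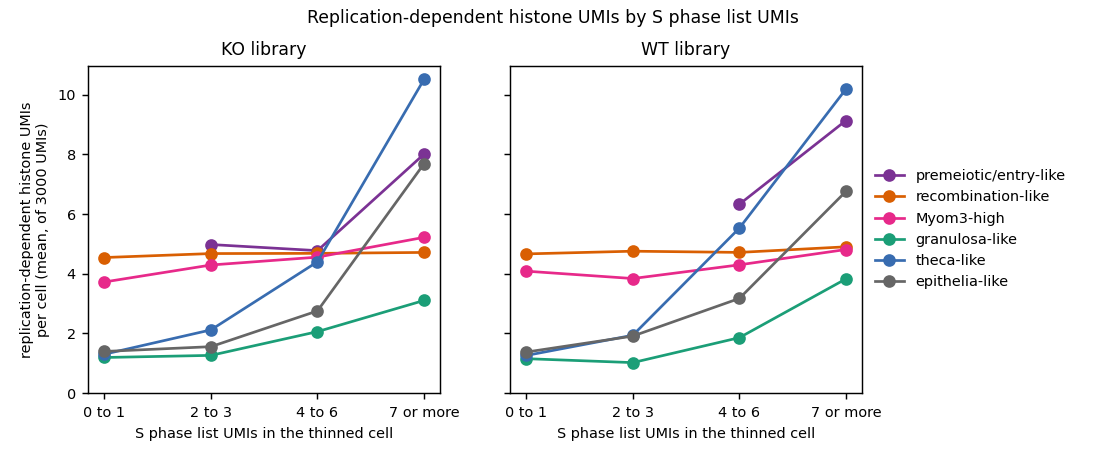
Mean replication-dependent histone UMIs per cell, after thinning to 3000 UMIs, against UMIs of the S phase list in the same cell, for 3 germ stages and 3 somatic-like classes in the KO and the WT library; bins with fewer than 20 cells are not drawn. Theca-like cells climb to 10.5 UMIs in KO and 10.2 in WT, while recombination-like cells stay between 4.55 and 4.90.

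Hist1h1e and Hist1h4d, the most counted replication-dependent genes in Myom3-high cells, have annotated messages that run past the stem-loop; Hist1h4d was nonetheless lower there than in premeiotic/entry-like cells, at a log2 ratio of -0.22 (-0.25 to -0.18) in KO and -0.67 (-0.71 to -0.63) in WT. Of the 66 replication-dependent genes, 20 have a longest transcript that extends more than 100 bases past the stem-loop, 20 end within 100 bases of it, 23 have no stem-loop in the annotated transcript, and 3 have no coding transcript in the annotation; the 100-base limit was chosen after the levels had been seen. Extending genes summed to 1152 CPM in KO and 1354 CPM in WT premeiotic/entry-like cells and to 999.9 and 946 CPM in Myom3-high cells, which is a log2 ratio of -0.20 (-0.22 to -0.18) and -0.52 (-0.54 to -0.49). Genes ending near the stem-loop went from 599 and 739 CPM to 240.00 and 226 CPM, which is a log2 ratio of -1.32 (-1.35 to -1.28) and -1.71 (-1.74 to -1.67). Genes without an annotated stem-loop followed the second course, with -1.28 (-1.31 to -1.25) and -1.62 (-1.65 to -1.58). That class may hold genes whose stem-loop lies past the annotated end. Extending genes gave 47.4% of replication-dependent UMIs in KO and 47.4% in WT premeiotic/entry-like cells, 65.2% and 65.7% in Myom3-high cells and 45.1% and 44.8% in theca-like cells.

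The sums rest on few genes. Hist1h1e and Hist1h4d alone gave 398 and 312 CPM of the extending sum in KO Myom3-high cells. Gene by gene the difference was smaller. In KO Myom3-high cells 5 of 15 extending genes tested were higher and 6 lower, against 2 and 5 of 17 genes that end near the stem-loop. In WT these were 3 and 7 of 15 against 3 and 7 of 16. Of all genes tested, 29.8% were higher and 19.8% lower in KO, and 30.9% and 19.2% in WT. The median log2 ratio was 0.14 in KO and -0.02 in WT for extending genes and -0.21 and -0.51 for genes ending near the stem-loop. Hist1h2ae, itself an extending gene, was lower in Myom3-high than in premeiotic/entry-like cells past the limit in both libraries. Which end of each message was read cannot be seen in counts per gene. Of 63 replication-dependent genes with a coding transcript (for Hist1h2al, that of the pseudogene), 40 share at least 200 of their last 500 bases at 98% identity or more with a transcript of another gene, and so do 1 of 9 germ cell variants, H2afb3, and 0 of 10 replacement variants. Hist1h1e, Hist1h2ap, Hist1h2ae, Hist1h2ab, Hist1h2an, Hist1h3f and Hist1h3c are among the 40, so their counts may be split with or lost to the other gene and are uncertain. For Hist1h1e the closest match is a transcript of Hist1h2be, whose annotated span overlaps it on the same strand. The shared bases may thus be a stretch annotated to both genes. Hist1h4d, Hist1h4h, Hist1h4i, Hist1h1a, Hist1h1b, Hist1h2aa and Hist1h2ba are not among the 40.

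**Figure D4:**
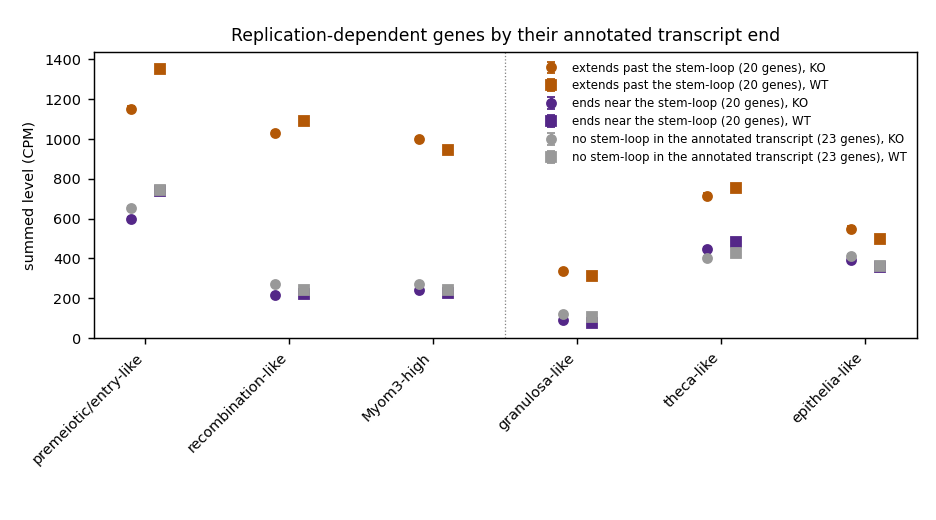
Summed level (CPM, linear axis from 0) of replication-dependent genes sorted by the end of their longest annotated transcript, in 3 germ stages and 3 somatic-like classes; circles are KO, squares WT, and exact 95% Poisson intervals are mostly smaller than the symbols. Genes extending past the stem-loop stay at 999.9 CPM in KO and 946 CPM in WT Myom3-high cells, while those ending near it stand at 240.00 and 226 CPM.

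Genes that process histone messages and carry histones were read alongside. Slbp, whose protein binds the stem-loop, stood at 412 CPM in KO and 410.1 CPM in WT premeiotic/entry-like cells and 141 and 149.8 CPM in Myom3-high cells. Of 11 genes of histone message processing, 2 were higher and 4 lower in WT Myom3-high cells by 1.5-fold and 2 and 3 in KO; Npat, a coactivator of histone transcription, showed a log2 ratio of -0.91 (-0.99 to -0.84) in KO and -0.92 (-0.996 to -0.84) in WT, and Lsm10, a part of the U7 particle that cuts the message, 0.99 (0.86 to 1.13) and 1.12 (0.94 to 1.31). In the same comparison 30.9% of all genes were higher and 19.2% lower in WT, and 29.8% and 19.8% in KO. Of 22 histone chaperones, 4 were higher and 2 lower in WT and 5 and 2 in KO. Those lower in both were Asf1b, a chaperone of H3 and H4 in proliferating cells, at -1.39 (-1.45 to -1.34) and -1.25 (-1.31 to -1.19), and Anp32e, which removes H2A.Z, at -2.49 (-2.60 to -2.37) and -2.18 (-2.29 to -2.07). Cabin1, a part of the HIRA complex that deposits H3.3, was higher, at 1.34 (1.21 to 1.48) and 1.44 (1.26 to 1.62). Against granulosa-like cells, 8 of the 11 processing genes and 12 of the 22 chaperones were higher in germ-like cells in either library. Of all genes, 37.8% were higher there in WT and 36% in KO.

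Between KO and WT the histone roles differed little in germ-like cells. The summed log2 ratio of KO over WT was 0.07 (0.06 to 0.08) for replication-dependent genes, -0.05 (-0.06 to -0.05) for replacement variants and 0.02 (-0.00 to 0.04) for germ cell variants. Within the stages it was -0.24 (-0.25 to -0.22), -0.03 (-0.05 to -0.02) and 0.09 (0.08 to 0.11) for replication-dependent genes from premeiotic/entry-like to Myom3-high cells, and 0.46 (0.38 to 0.54), 0.14 (0.10 to 0.18) and 0.19 (0.17 to 0.22) for germ cell variants. The sum of germ cell variants was thus higher in KO in each stage, and Hist1h2aa, its largest part, had 0.46, 0.20 and 0.26. All 4 counted variants were higher in premeiotic/entry-like KO cells, whereas in the later 2 stages Hist1h2ba had 0.05 and 0.06, Hist1h1t 0.05 and -0.03, and H2bfm -0.03 and 0.11. The pooled ratio was near 0, with premeiotic/entry-like cells, where they are lowest, making up 1839 of 10185 germ-like cells in KO and 710 of 6766 in WT. All of the 11 message processing genes, 22 chaperones, 24 S phase genes and 15 G2/M genes stayed within 1.5-fold of WT in germ-like cells. Among all 13792 genes tested there, 1.94% were higher and 3.55% lower by that limit, so most genes stayed within it too.

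Of 70 members with at least 100 UMIs in germ-like cells, 4 were higher and 7 lower in KO by at least 1.5-fold, where 1.94% of all 13792 genes were higher and 3.55% lower. Most of these are weakly counted. Hist1h2bh, an H2B gene, stood at 0.354 CPM in KO and 0.950 CPM in WT (log2 ratio -1.42 (-1.96 to -0.91), 43 and 114 UMIs), Hist2h3c2, an H3 gene, at 0.321 CPM in KO and 0.642 CPM in WT (-0.998 (-1.59 to -0.42)) and Hist1h2ai, an H2A gene, at 1.66 CPM in KO and 0.817 CPM in WT (1.03 (0.67 to 1.39)). The H2A genes Hist1h2ah and Hist1h2ac had log2 ratios of -0.80 (-1.33 to -0.29) and -0.66 (-0.91 to -0.41), and the H2A gene Hist2h2ac one of 0.74 (0.34 to 1.14), all below 3 CPM. Better counted were Hist1h2bp, an H2B gene, at 9.06 CPM in KO and 14.4 CPM in WT (-0.67 (-0.78 to -0.56)), and H1f0, at 59.2 CPM in KO and 90.9 CPM in WT (-0.62 (-0.66 to -0.57)). Hist1h4a, an H4 gene, completed the higher set with 0.61 (0.48 to 0.74), and Hist1h3e, an H3 gene whose 3′ end is 99% identical to that of Hist1h3f and which is named here after its values were seen, the lower set with -0.65 (-0.73 to -0.58). H1f0 did not keep its size within stages: the log2 ratio was -0.24, -0.25 and -0.35 from premeiotic/entry-like to Myom3-high cells, and -0.31 averaged over the stages with WT weights, inside the 1.5-fold limit. With cells carrying markers of another class removed, 5 members passed the limit in place of 11, and 6 of the 11 still had 100 UMIs.

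Hist1h4i, an H4 gene of the Hist1 locus, was the 1 member of 43 tested in all 4 large classes that was higher in KO by 1.5-fold in each, while 28 passed the limit in none and 0 were lower in all 4. Of all 9322 genes tested in the 4 classes, 17 (0.182%) were higher in each, 12 (0.129%) were lower in each and 93.4% passed the limit in none. It stood at 21.8 CPM in KO and 13.3 CPM in WT in germ-like cells, which is a log2 ratio of 0.71 (0.62 to 0.80). In the somatic-like classes its levels were 13.2 CPM in KO and 5.23 CPM in WT in granulosa-like (1.33 (0.94 to 1.74)), 18.9 CPM in KO and 9.85 CPM in WT in theca-like (0.94 (0.61 to 1.29)) and 28.7 CPM in KO and 17.2 CPM in WT in epithelia-like cells (0.74 (0.45 to 1.04)). Within the germ stages it was 0.26, 0.91 and 0.94, so the premeiotic/entry-like cells of the libraries lay within 1.5-fold. Germ cell RNA was counted in the somatic-like classes, and its part in these somatic values was not tested. Whether it was free RNA or came with doublets was not tested either. The 4 classes come from the same pair of libraries. The level climbed along the germ stages in both libraries, from 11.0 CPM in KO and 9.21 CPM in WT to 31.1 CPM in KO and 16.2 CPM in WT. No copy of its last 500 bases was found among annotated transcripts at the limit used.

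In granulosa-like cells 8 of 45 members were higher and 0 lower in KO, where 1.22% of all genes were higher and 1.35% lower. Beside Hist1h4i these were Hist1h2bm, an H2B gene, at 1.01 (0.49 to 1.57), Hist1h4a at 0.75 (0.20 to 1.34), Hist1h3c at 0.69 (0.11 to 1.29), Hist1h1t at 0.67 (0.07 to 1.29), Hist1h1a at 0.67 (0.43 to 0.91), Hist1h2ae at 0.60 (0.37 to 0.82) and Hist1h2aa at 0.59 (0.40 to 0.79). Germ markers in these cells stood at 17.4% of the germ-like level in KO and 15.1% in WT. After removal of cells with markers of another class 0 members passed the limit, but only 17 of the 45 kept 100 UMIs and none of these 8 did; Hist1h4i had a log2 ratio of 1.24 on 67 UMIs. Without Scrublet doublets the log2 ratio was -0.74 for Hist1h1t, -0.72 for Hist1h2aa, -0.33 for Hist1h1a and -0.03 for Hist1h2ae. The granulosa-like count thus depends on whether these cells are kept, in part through the UMI minimum.

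In theca-like cells 3 of 58 members were higher, against 3.28% of all genes, and 3 lower, against 1.16%. The higher ones were Hist1h4i, Hist1h2aa at 0.77 (0.58 to 0.97) and Hist1h2ba at 0.66 (0.33 to 0.998), in a class where germ markers stood at 23.0% of the germ-like level in KO and 15.4% in WT. The lower ones were Hist1h2ab, an H2A gene, at 29.6 CPM in KO and 54.0 CPM in WT (-0.87 (-1.05 to -0.68)), Hist1h2bg, an H2B gene, at -0.73 (-1.13 to -0.33) and Hist1h3b, an H3 gene, at -0.71 (-1.03 to -0.38). Hist1h2ab was below WT in germ-like cells as well, at 28.7 CPM in KO and 41.5 CPM in WT (-0.53 (-0.59 to -0.47)), short of the 1.5-fold limit. With cells carrying markers of another class removed, 2 theca-like members passed the limit in place of 6, with 31 of 58 still at 100 UMIs, and 3 without Scrublet doublets. In epithelia-like cells 3 of 55 members were higher, against 1.15% of all genes, and 2 lower, against 0.85%. These were Hist1h4i, Hist1h2al, at 0.67 (0.35 to 0.996), and Hist1h4a at 0.62 (0.11 to 1.15), and the H4 gene Hist1h4c at -0.85 (-1.30 to -0.40) and Hist1h1c (H1.2) at -0.64 (-0.87 to -0.40). Hist1h2al is annotated as a processed pseudogene and is 99.4% identical to the H2A gene Hist2h2aa2 over 339 bases, so its counts are uncertain. Replacement variants stayed within 1.5-fold of WT in the 3 somatic-like classes, all 10 of them in each, as did most of all genes tested. Without a replicate, none of these differences can be set against the spread between libraries of 1 genotype.

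**Figure D5:**
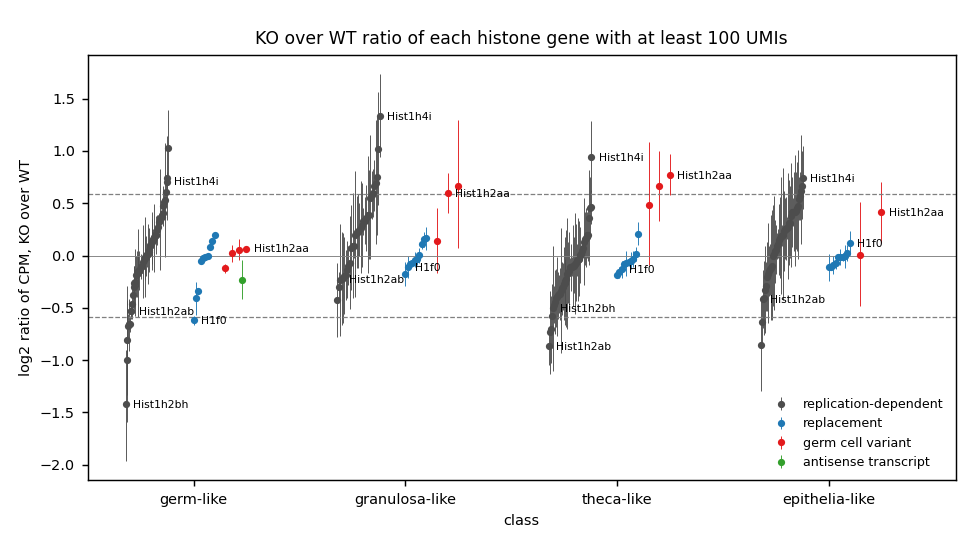
Log2 ratio of CPM in KO over WT for each histone gene with at least 100 UMIs in a class, ordered within role; bars are exact 95% counting intervals and dashed lines mark 1.5-fold. Hist1h4i lies above the upper line in all 4 classes, from 0.71 in germ-like to 1.33 in granulosa-like cells, and replacement variants other than H1f0 in germ-like cells lie between the lines.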

How the data were processed

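Per the labels, dissociated E15.5 ovaries were sorted and captured with a 10X 3′ chemistry. The authors deposited UMI counts per gene and barcode, whole numbers without normalization, made with Cell Ranger (3.0.2 in the file headers); the submitters' processing notes also name mm10 and Seurat 3.2.3. The annotation version and the treatment of reads that match several genes are not given in the sources used here.

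Filtering followed the study's limits (WT 1500 to 6500 genes and 5500 to 40000 UMIs, KO 1200 to 5500 genes and 3000 to 30000 UMIs, mitochondrial UMIs under 10%), which left 15502 KO and 9045 WT cells. They were clustered with scanpy 1.11.5 and leidenalg 0.10.2 (2000 variable genes without histone genes, 30 components, 20 neighbours, resolution 0.5, and 0.3 for germ stages) and called X-like when at least 3 markers passed; doublets were removed only as an alternative (Scrublet, expected rate 8%). UMIs were summed per class and library and divided by all UMIs of the class (CPM). Intervals are exact 95% Poisson or conditional binomial intervals (scipy 1.17.1). A member counts as higher or lower at 1.5-fold with at least 100 UMIs over both sides, beside the share of all genes past the same limit. With 1 library a genotype no p-value was computed. Histone members, lists and limits were chosen with earlier results of these data known. Genes are named by rule: replacement and germ cell variants with at least 10 UMIs, the 10 replication-dependent genes with the most germ-like UMIs, and up to 8 members past 1.5-fold in each of the 4 large classes. Stem-loops came from GENCODE M21 transcripts and near-identical ends from BLAST 2.17.0; 84 of the 86 members matched GENCODE. Sums and ratios were tested on simulated counts. Alternatives covered cell limits, doublets, markers of other classes, thinning, scaling, clustering, UMI minimum and fold.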

Additional observations from a re-analysis of the deposited data

Results flagged for a closer look

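For 3 members the log2 ratio of KO over WT had counting intervals on opposite sides of 0 in germ-like cells and in a somatic-like class, with the 1.5-fold limit passed on 1 side only. Hist2h2ac, an H2A gene of the Hist2 locus, had 0.74 in germ-like and -0.26 in theca-like cells, where it ran from -0.51 to 0.14 over the alternatives. Hist1h2ba (TH2B) had -0.12 in germ-like cells (-0.15 to 0.0765 over the alternatives), although it was 0.28, 0.05 and 0.06 within the 3 germ stages. Its theca-like value was 0.66, in a class where its counts lay within the range of the germ markers, and was -0.54 without cells carrying markers of another class. H1f0, a replacement linker histone, had -0.62 in germ-like and 0.12 in epithelia-like cells (-0.00664 to 0.22 over the alternatives). The smaller side thus crossed 0 in each case. With 1 library a genotype, the difference between cell types was not tested for any of them.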

How the results depend on the processing

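The WT role sums kept their direction along the stages and between germ-like and granulosa-like cells under every alternative run for them, whereas the summed KO over WT ratios in germ-like cells lay near 0 and changed sign for germ cell variants and for replacement variants, each under 2 alternatives. Beside the reported counts of members past 1.5-fold between KO and WT (11 in germ-like, 5 in epithelia-like, 8 in granulosa-like and 6 in theca-like cells), the values below are those that moved by over 1.5 times (counts) or beyond the counting interval (log2 sums, which are narrow). Without Scrublet doublets, counts of members past the limit were 5 in granulosa-like and 3 in theca-like cells, WT germ-like over granulosa-like was 1.91 (replication-dependent) and -0.44 (replacement) and 3.74 (germ cell variant) and WT Myom3-high over premeiotic/entry-like was 0.29 (replacement). Without cells carrying markers of another class, counts of members past the limit were 8 in epithelia-like, 5 in germ-like, 0 in granulosa-like and 2 in theca-like cells, KO over WT in germ-like cells was 0.0297 (replication-dependent) and -0.0261 (germ cell variant), WT germ-like over granulosa-like was 2.18 (replication-dependent) and -0.51 (replacement) and 7.07 (germ cell variant) and WT Myom3-high over premeiotic/entry-like was -0.85 (replication-dependent) and 0.15 (replacement) and 1.52 (germ cell variant). With cells thinned to 3000 UMIs, counts of members past the limit were 2 in epithelia-like, 7 in germ-like and 4 in granulosa-like cells, KO over WT in germ-like cells was 0.0497 (germ cell variant), WT germ-like over granulosa-like was 1.95 (replication-dependent) and -0.45 (replacement) and 4.18 (germ cell variant) and WT Myom3-high over premeiotic/entry-like was -0.93 (replication-dependent) and 0.31 (replacement) and 1.79 (germ cell variant). With the mean over cells, counts of members past the limit were 2 in granulosa-like cells and KO over WT in germ-like cells was 0.0469 (germ cell variant). Scaled without mitochondrial, ribosomal protein and haemoglobin genes, KO over WT in germ-like cells was 0.0457 (replication-dependent) and -0.0800 (replacement) and -0.00954 (germ cell variant), WT germ-like over granulosa-like was -0.39 (replacement) and WT Myom3-high over premeiotic/entry-like was -0.92 (replication-dependent) and 0.34 (replacement). Relative to the median ratio of all genes, KO over WT in germ-like cells was 0.13 (replication-dependent) and 0.00205 (replacement) and 0.0725 (germ cell variant). Averaged over germ stages with WT weights, KO over WT in germ-like cells was 0.0159 (replication-dependent) and 0.00524 (replacement) and 0.20 (germ cell variant). With the finer germ clustering, WT Myom3-high over premeiotic/entry-like was -1.15 (replication-dependent) and 0.43 (replacement) and 2.03 (germ cell variant). At a minimum of 300 UMIs, counts of members past the limit were 3 in epithelia-like, 7 in germ-like and 4 in granulosa-like cells. At a minimum of 1 UMI, counts of members past the limit were 14 in epithelia-like, 19 in germ-like, 26 in granulosa-like and 13 in theca-like cells. At 2-fold, counts of members past the limit were 0 in epithelia-like, 2 in germ-like, 2 in granulosa-like and 0 in theca-like cells. At a difference of 0.25 in ln(CP10k + 1), counts of members past the limit were 0 in epithelia-like, 0 in germ-like, 0 in granulosa-like and 0 in theca-like cells. Among 29 KO over WT values of named members past the limit, 7 turned in sign: Hist1h1t in granulosa-like cells (-0.74, without Scrublet doublets), Hist1h2aa in granulosa-like cells (-0.72, without Scrublet doublets), Hist1h1a in granulosa-like cells (-0.33, without Scrublet doublets), Hist1h2ae in granulosa-like cells (-0.0303, without Scrublet doublets), Hist1h4a in granulosa-like cells (-0.31, without cells carrying markers of another class), Hist1h2ba in theca-like cells (-0.54, without cells carrying markers of another class), Hist1h2bg in theca-like cells (0.0444, thinned cells); the cause was not tested. Of 136 such values within the limit or under 100 UMIs, 70 had the other sign under at least 1 alternative, so the direction of small ratios is not settled. Hist1h4i stayed higher in KO under all alternatives, at 0.68 to 0.86 in germ-like, 0.59 to 0.80 in epithelia-like, 1.15 to 1.90 in granulosa-like and 0.57 to 1.09 in theca-like cells. Of the other values, 57 of the role sums and counts stayed within those bounds, as did 1258 values of single members, and 268 of these moved. Removing cells by markers or doublet calls leaves fewer cells and UMIs. Thinning left out 0 cells. No paired analysis was possible because each genotype holds 1 library and the labels give no shared replicate number. No library could be left out for the same reason. Depth limits members below about 100 UMIs, and the intervals cover counting error only.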
